A study of Mus musculus with 24 samples.

Results

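The comparison set the 12 liver arrays of mice fed 0.5% or 1.0% quercetin, called the higher doses here, against the 12 liver arrays of mice fed no quercetin or 0.1% quercetin, called the lower doses. Each array was placed by the diet in its sample title, so the 24 arrays of the series fell into 12 and 12 with no array left over. The question was whether liver gene expression separated these diets at a step between 0.1% and 0.5%, and whether the 2 diets on each side of that step had like levels. The animals were male BALB/c mice obtained at 6 weeks of age and given a nonpurified diet (NMF) for a week. The purified AIN93G diet was then fed for 14 days with 0.5% or 1.0% quercetin, against the same diet alone (control) or with 0.1% quercetin, to 6 mice in each group. All 24 mice shared strain, sex, base diet, feeding time and a dark period from hour 8 to hour 20 of the day, and none carried a deleted or added gene. They were housed 3 to a cage and killed under pentobarbital, at an hour that the sources used here do not give. No record of cages was used here, so a cage and a diet cannot be told apart, and the p-values treat mice of 1 cage as independent.

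Quercetin is a plant flavonol that the gut wall and liver conjugate with glucuronic acid, sulfate and methyl groups. In cultured cells it is known as an antioxidant and as a ligand or inhibitor of several enzymes and receptors, and it can bind metal ions. The liver is a tissue in which the circadian clock, feeding, glucocorticoids and insulin each set the transcript levels of many metabolic genes. In the clock, Arntl and its partner Clock drive the genes Dbp, Tef, Nr1d1 and Nr1d2 through E-box sequences, and the Nr1d proteins in turn repress Arntl, Cry1 and Nfil3.

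Each value below is a log2(signal + 1) level of 1 probe set per gene after quantile normalization, and each difference is the mean of the 2 higher doses minus the mean of the 2 lower doses on that scale. For dim genes this scale understates a change. A gene was called when limma's adjusted p was under 0.05 over 18194 genes. The tissue label fitted its markers, since the hepatocyte genes Alb, Apoa1 and Ttr averaged 13.15, 13.28 and 13.15 over the 24 arrays. The median deposited signal of an array was 5.53 to 7.23 with the higher doses and 4.78 to 7.58 with the lower doses, and the 3' to 5' signal ratio of the Gapdh control probes was 0.755 to 0.835 against 0.734 to 0.842. The same ratio of the actin control probes was 1.80 to 2.46 with the higher doses and 1.76 to 2.08 with the lower doses, and 5 higher-dose arrays lay above every lower-dose array. On the first principal component, which held 9.15% of the variance, 4 higher-dose arrays stood apart with scores of 45.4 to 64.2, while the other 8 scored -18.3 to 5.99 and the 12 lower-dose arrays -20.6 to -3.8. These were 0.5% replicates 4 and 6 and 1.0% replicates 4 and 5. In 2 other higher-dose arrays, 0.5% replicate 1 and 1.0% replicate 6, an 18S ribosomal RNA control probe set read 11.37 and 10.07, above its highest lower-dose value of 7.86. The actin ratio was 2.46 and 2.28 in these 2 arrays, and the part of RNA quality in the results below was not tested. On the second component, which held 5.91% of the variance, 1.0% replicate 2 scored -87.7, while the other 23 arrays scored -15.9 to 15.8.

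With the higher doses, 62 genes rose (0.341% of 18194) and 53 fell (0.291%), or 115 in either direction (0.632%). Clock output genes, feedback inhibitors of cytokine and growth hormone signalling, phosphatidate phosphatases and glucocorticoid-responsive genes were among those that rose. The genes that fell included the clock activator Arntl, the insulin signalling gene Irs1, the glycogen-targeting gene Ppp1r3c and the nuclear receptor Nr0b2. The rises had a median difference of 0.81 and ran from 0.35 to 4.06, and the falls had a median of -0.67 and ran from -0.25 to -1.48. Over all genes the median difference was -0.02, and 8419 of 18194 differences were above 0. An unadjusted p under 0.05 was reached by 2230 genes (12.3%). Leaving out the 4 arrays that stood apart, limma called 22 genes as higher and 19 as lower, and 34 of the original 115 calls were kept. Without 1.0% replicate 2, the array set off on the second component, 78 were called as higher and 72 as lower. With no normalization between arrays, 20 genes were called as higher and only 3 as lower, so 87% of calls were rises, against 53.9% with quantile normalization. Leaving out 1 array at a time gave between 57 and 194 called genes. The total moved by over 1.5 times without 0.5% replicates 3, 4, 5 or 6 (194, 57, 71 and 65 genes) or 1.0% replicate 4 (65 genes), without control replicates 1, 3, 4 or 5 (65, 58, 68 and 68 genes), and without 0.1% replicates 1, 2, 3, 5 or 6 (63, 70, 69, 68 and 76 genes).

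**Figure D1:**
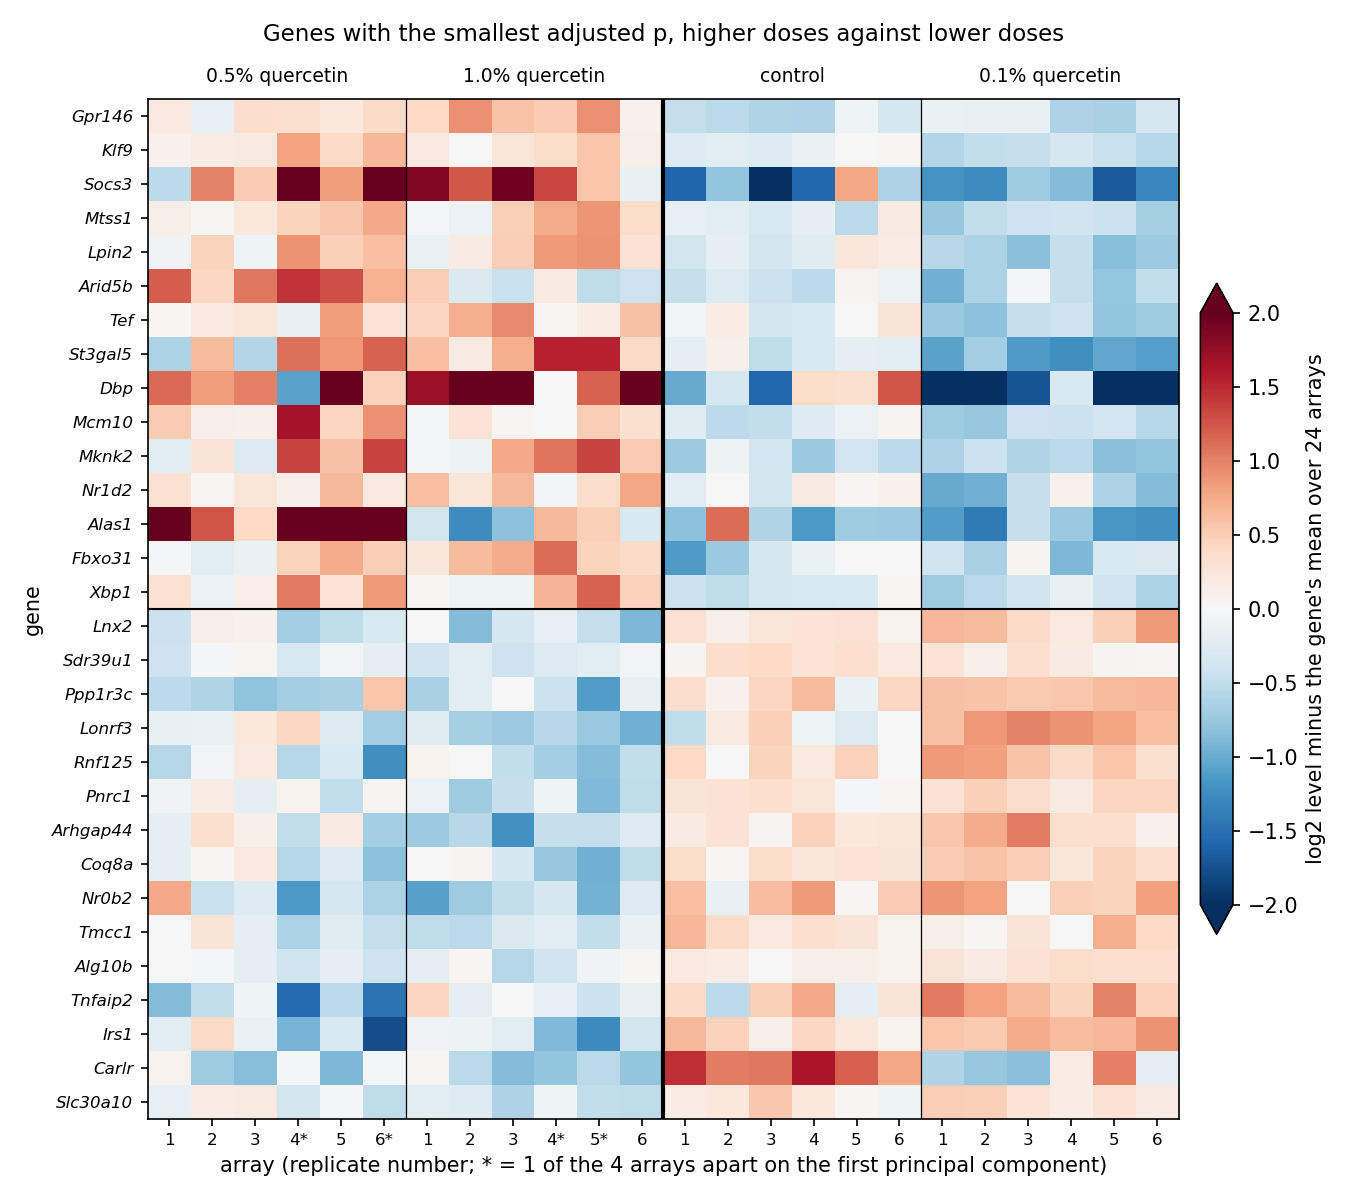
Levels of the 15 genes with the smallest adjusted p among those that rose (upper rows) and the 15 among those that fell (lower rows), in 24 arrays. Colour gives the log2 level minus the mean of that gene over the 24 arrays, red above and blue below it, with colours ending at -2 and 2. The thick line parts the 12 higher-dose arrays on the left from the 12 lower-dose arrays. Most rows change colour at that line, Alas1 and Arid5b are reddest in the 0.5% arrays, and Carlr is red in the control arrays and mostly blue in the 0.1% arrays.

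Gpr146, a G protein-coupled receptor known in mice for its effect on plasma cholesterol, had the smallest p of all genes. Its levels were 6.52, 7.05 and 7.60 (lowest, median and highest of 12) with the higher doses, against 6.03, 6.27 and 6.59 with the lower doses. Only 1 of the 12 higher-dose arrays lay within the lower-dose range, and the difference was 0.78 ± 0.10 (SE, n = 12 each, adjusted p = 0.0023). Klf9, a Krüppel-like transcription factor induced by glucocorticoids, read 9.61, 9.83 and 10.41 with the higher doses and 9.02, 9.30 and 9.64 with the lower doses. This was a rise of 0.62 ± 0.09 (adjusted p = 0.0023), again with 11 of 12 arrays beyond the whole lower-dose range. The 2 lower diets did not overlap for Klf9, at 9.33 to 9.64 in controls and 9.02 to 9.28 with 0.1%. Among the other rises, Mtss1, an actin- and membrane-binding protein, differed by 0.74 ± 0.12. St3gal5, the enzyme that makes the ganglioside GM3, differed by 1.26 ± 0.21, with levels of 6.15, 7.45 and 8.33 against 5.55, 6.17 and 6.88. Its control arrays, at 6.26 to 6.88, all lay above its 0.1% arrays, at 5.55 to 6.09. Mknk2, a kinase of the translation factor eIF4E, differed by 1.11 ± 0.19, and 10 of its 12 higher-dose arrays lay above every lower-dose array. Fbxo31, a ubiquitin ligase subunit, and Mcm10, a DNA replication factor, rose by 0.81 ± 0.15 and 0.80 ± 0.14. The 2 other Mcm10 probe sets were far dimmer, with a highest mean of 3.58. They differed by 0.432 and 0.665, and neither passed. Of the 15 rises with the smallest p, 13 still passed without the 4 arrays that stood apart, and Fbxo31 and Alas1 did not (adjusted p = 0.124 each).

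Sdr39u1, a member of the short-chain dehydrogenase family, was the only called gene whose sides did not overlap, a pattern that 2 of 18194 genes showed (0.011%). It read 4.54, 4.74 and 4.97 with the higher doses and 4.99, 5.19 and 5.36 with the lower doses, a fall of -0.43 ± 0.07 (adjusted p = 0.0069). The gap between the sides was narrow, from 4.97 to 4.99. The other Sdr39u1 probe set was dim, with a mean of 2.16, and differed by 0.233 in the opposite direction without passing. With no normalization between arrays the fall of Sdr39u1 was -0.355 and did not pass (limma, adjusted p = 0.376). Over all processing alternatives its smallest fall was -0.0973. Ppp1r3c, which targets protein phosphatase 1 to glycogen, read 8.11, 8.66 and 9.77 with the higher doses and 9.09, 9.75 and 9.89 with the lower doses (difference -0.88 ± 0.14, adjusted p = 0.0069). In 10 of the 12 higher-dose arrays it lay below every lower-dose array, while 0.5% replicate 6 at 9.77 and 1.0% replicate 3 at 9.22 lay within the lower-dose range. Irs1, an adaptor of the insulin receptor, read 5.00, 6.52 and 7.17 against 6.85, 7.32 and 7.68, and 11 of 12 higher-dose arrays lay below every lower-dose array (difference -0.98 ± 0.19, adjusted p = 0.018). Lnx2 and Rnf125, both RING-type ubiquitin ligases, had differences of -0.75 ± 0.12 and -0.83 ± 0.14, and Lonrf3, a RING finger protein, one of -0.75 ± 0.12. The 0.5% and control arrays of Lonrf3 overlapped, with medians of 4.32 and 4.41. Most of its difference came with 1.0%, at a median of 3.76, and 0.1%, at 5.28. Pnrc1, a nuclear receptor coactivator, fell by 0.54, Tmcc1, an endoplasmic reticulum membrane protein, fell by 0.57, and Alg10b, a glucosyltransferase of N-glycan assembly, fell by 0.40. Tnfaip2, a gene induced by tumour necrosis factor, and Arhgap44 differed by -0.92 ± 0.17 and -0.75 ± 0.13. Of 2 other Tnfaip2 probe sets, 1 differed by -0.843 and passed, and 1 differed by 0.562 in the opposite direction without passing. Carlr had a dim probe set and read 0.22, 0.49 and 1.18 with the higher doses, against 0.28, 2.01 and 2.75 with the lower doses. Of the 15 falls with the smallest p, 9 still passed without the 4 arrays, and Nr0b2, Tmcc1, Alg10b, Tnfaip2, Carlr and Slc30a10 did not, with adjusted p between 0.0597 and 0.0914.

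In the called genes, the diet that lay farthest from the higher doses was more often 0.1% than control. In 115 of 115 called genes both higher-dose means lay beyond both lower-dose means. The choice of genes by this contrast favours that pattern, so it does not test whether the doses on a side agree. Among the genes that rose, 0.5% minus control was as small as 0.00137. The mean of 1.0% lay farther out than that of 0.5% in 68 of the 115 (59.1%). It was above the 0.5% mean in 34 of 62 genes that rose (54.8%) and below it in 34 of 53 that fell (64.2%). Over all genes, 51.4% of 1.0% means were above the 0.5% mean. Seen from control, the 0.1% mean had moved toward the higher doses in 20 of 115 called genes (17.4%) and away from them in the others. The median of 0.1% minus control was -0.23 over the 62 genes that rose and 0.20 over the 53 that fell. The 0.1% mean lay above the control mean in 12 of the 62 (19.4%) and below it in 8 of the 53 (15.1%). Over all genes, 52.3% of 0.1% means lay above the control mean. The 4 single contrasts, which share arrays, called different numbers of genes. They called 46 genes for 1.0% against 0.1% (0.253%), 39 for 0.5% against 0.1% (0.214%), 4 for 1.0% against control (0.022%) and 3 for 0.5% against control (0.0165%). Over all genes, the 2 contrasts that share no array, 0.5% minus control and 1.0% minus 0.1%, had a Pearson correlation of 0.17 across genes, and 57.8% of genes had the same sign. These values were 0.04 and 53.2% without the 4 arrays that stood apart. For 0.5% minus 0.1% with 1.0% minus control they were 0.14 and 56.1%, and without the 4 arrays 0.02 and 50.3%. Genes are not independent replicates, so these values describe the arrays and carry no test.

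**Figure D2:**
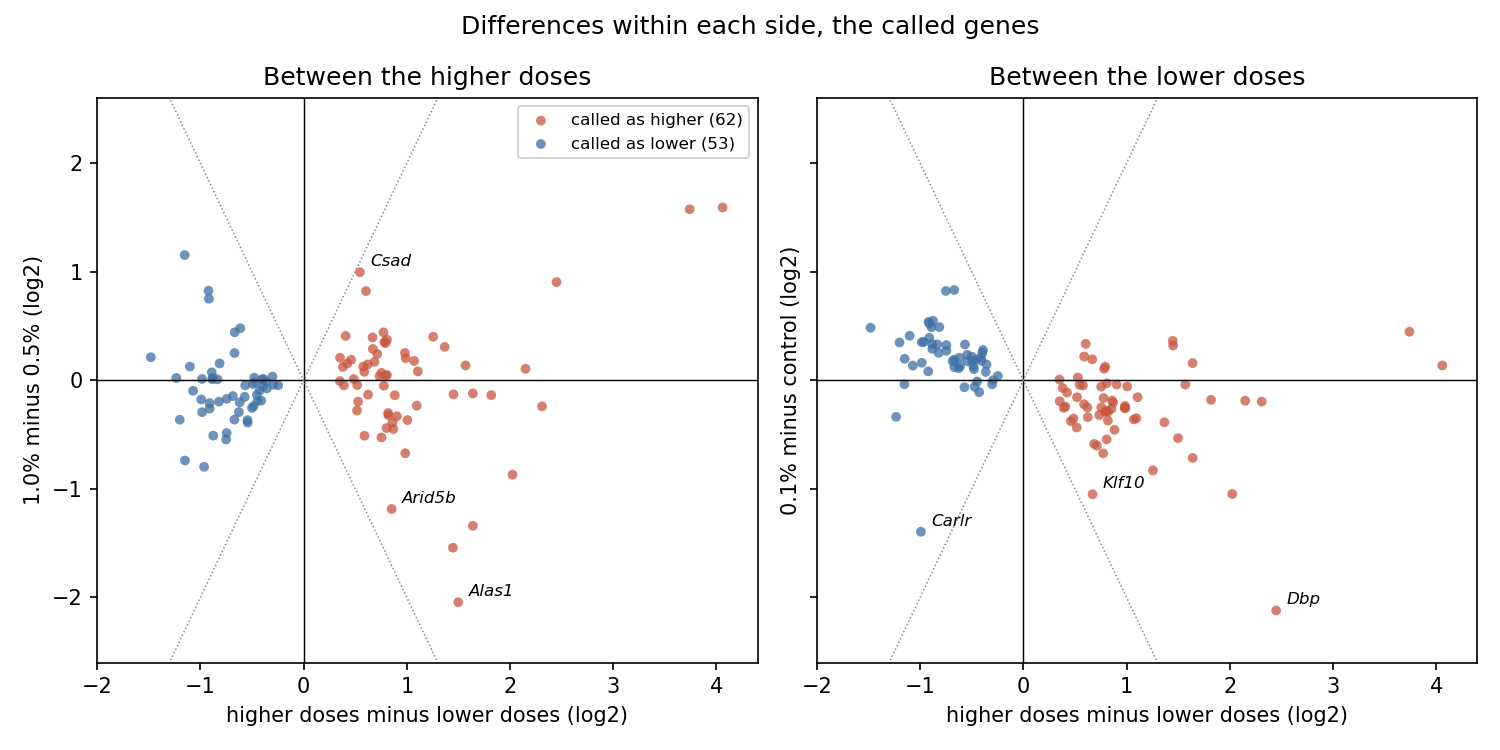
Differences within each side for the 115 called genes, as 1.0% minus 0.5% (left panel) and 0.1% minus control (right panel), against the difference between the higher and the lower doses, all in log2 units, with 62 genes that rose in red and 53 that fell in blue. On the dotted lines, 1 of the 2 diets of that side would equal the mean of the other side. All points lie in the sectors around the horizontal axis that these lines bound, and in the right panel most red points lie below 0 and most blue points above 0.

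Tested directly, few genes passed between the 2 diets of a side. The contrast of 1.0% with 0.5% called 3 genes as higher (0.0165%) and 1 as lower (0.0055%), or 0.022% in either direction, and 1127 genes had an unadjusted p under 0.05 (6.19%). The contrast of 0.1% with control called 0 genes by limma, with 930 at an unadjusted p under 0.05 (5.11%). A joint test of both differences also called 0, with 1072 at an unadjusted p under 0.05 (5.89%). Among the 115 genes called between the sides, 22 (19.1%) had an unadjusted p under 0.05 for 1.0% against 0.5%. For 0.1% against control 18 of them did (15.7%). With 6 arrays in each group, few adjusted calls do not show like levels on a side. After adjustment, 2 of the 115 differed between 1.0% and 0.5%, namely Csad and Arid5b. Csad, the decarboxylase that makes the taurine precursor hypotaurine, read 6.91, 7.22 and 7.89 (lowest, median and highest of 6) with 1.0% and 5.99, 6.25 and 6.78 with 0.5%, against 6.15, 6.23 and 6.47 in controls and 6.10, 6.24 and 6.32 with 0.1%. The 1.0% arrays lay above all others, and the 0.5% arrays overlapped both lower-dose groups (1.0% minus 0.5% 1.00 ± 0.15 SE, adjusted p = 0.0268). Arid5b, a DNA-binding coregulator of transcription, ran the other way, with 6.12, 6.28 and 7.12 with 1.0%, against 7.04, 7.76 and 8.07 with 0.5%. Its 1.0% median was close to the control median of 6.27, and the difference between 1.0% and 0.5% was -1.19 ± 0.20 (adjusted p = 0.0326). Between the higher and the lower doses, 3 of 4 other Arid5b probe sets differed upward and 1 of them passed. The remaining 1 differed by -0.458 without passing. Saal1, which was not called between the sides, read 5.62, 5.74 and 5.93 with 1.0% and 5.15, 5.27 and 5.35 with 0.5%, with no overlap (0.49 ± 0.08, adjusted p = 0.0326). Ppfia4, a synaptic scaffold of the liprin family and a dim probe set here, read 2.23, 3.56 and 3.84 with 1.0% and 1.28, 1.64 and 1.93 with 0.5% (1.73 ± 0.30, adjusted p = 0.0409). Without the 4 arrays that stood apart, none of these 4 genes passed (adjusted p = 0.598 each), and leaving out single arrays gave 0 to 8 called genes. The 3 genes with the smallest p for 0.1% against control were Zfp458, Klf10 and Carlr, at -1.45 ± 0.27, -1.05 ± 0.20 and -1.40 ± 0.27 (adjusted p = 0.152 each). Klf10, an early-response transcription factor, read 5.26, 5.46 and 5.93 with 0.1% and 6.25, 6.61 and 6.92 in controls.

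The core clock and its output genes held calls in both directions. Of 19 clock genes measured, the output factors Dbp and Tef and the repressor Nr1d2 rose, and the activator Arntl and the repressors Cry1 and Nfil3 fell, while 13 did not pass. The list median was 0.11, against -0.02 over all genes, and 0.24 without the 4 arrays that stood apart. Dbp, a D-box-binding factor and clock output, read 5.72, 7.94 and 9.40 with the higher doses and 3.68, 5.50 and 8.04 with the lower doses (5.46-fold, difference 2.45 ± 0.41, adjusted p = 0.0075). All 12 higher-dose arrays lay above the lower-dose median, though 5 lay above the whole lower-dose range. Its group means were 7.56 with 0.5% and 8.47 with 1.0%, against 6.62 in controls and 4.50 with 0.1%. Tef, a factor of the same family, read 6.71, 7.12 and 7.82 against 6.05, 6.47 and 7.13 (0.71 ± 0.12, adjusted p = 0.0072). Nr1d2, one of the nuclear receptors that repress Arntl, read 8.02, 8.36 and 8.86 against 7.08, 7.79 and 8.25 (0.69 ± 0.12, adjusted p = 0.011). In all 3 genes the groups overlapped, and the 0.1% mean was the lowest of the 4. Arntl read 3.27, 4.93 and 5.75 with the higher doses and 5.43, 5.84 and 6.32 with the lower doses (-1.20 ± 0.24, adjusted p = 0.023). Cry1 read 3.71, 4.26 and 4.98 against 4.33, 4.98 and 5.57 (-0.67 ± 0.13, adjusted p = 0.0202). Its 0.5% and control means were 4.47 and 4.55, so most of its difference came with 1.0% at 4.11 and 0.1% at 5.38. Nfil3, a repressor that competes with Dbp for D-box sequences, read 5.85, 6.49 and 7.19 against 6.81, 7.13 and 7.41 (-0.63 ± 0.14, adjusted p = 0.036). Without the 4 arrays, Dbp (2.99), Tef (0.85), Nr1d2 (0.78) and Nfil3 (-0.71) still passed, while Arntl (-0.95, adjusted p = 0.0914) and Cry1 (-0.60, adjusted p = 0.0952) did not. In replicates 1 to 3 alone Dbp differed by 3.31 (adjusted p = 0.0047), and in replicates 4 to 6 alone by 1.59 (adjusted p = 0.331).

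**Figure D3:**
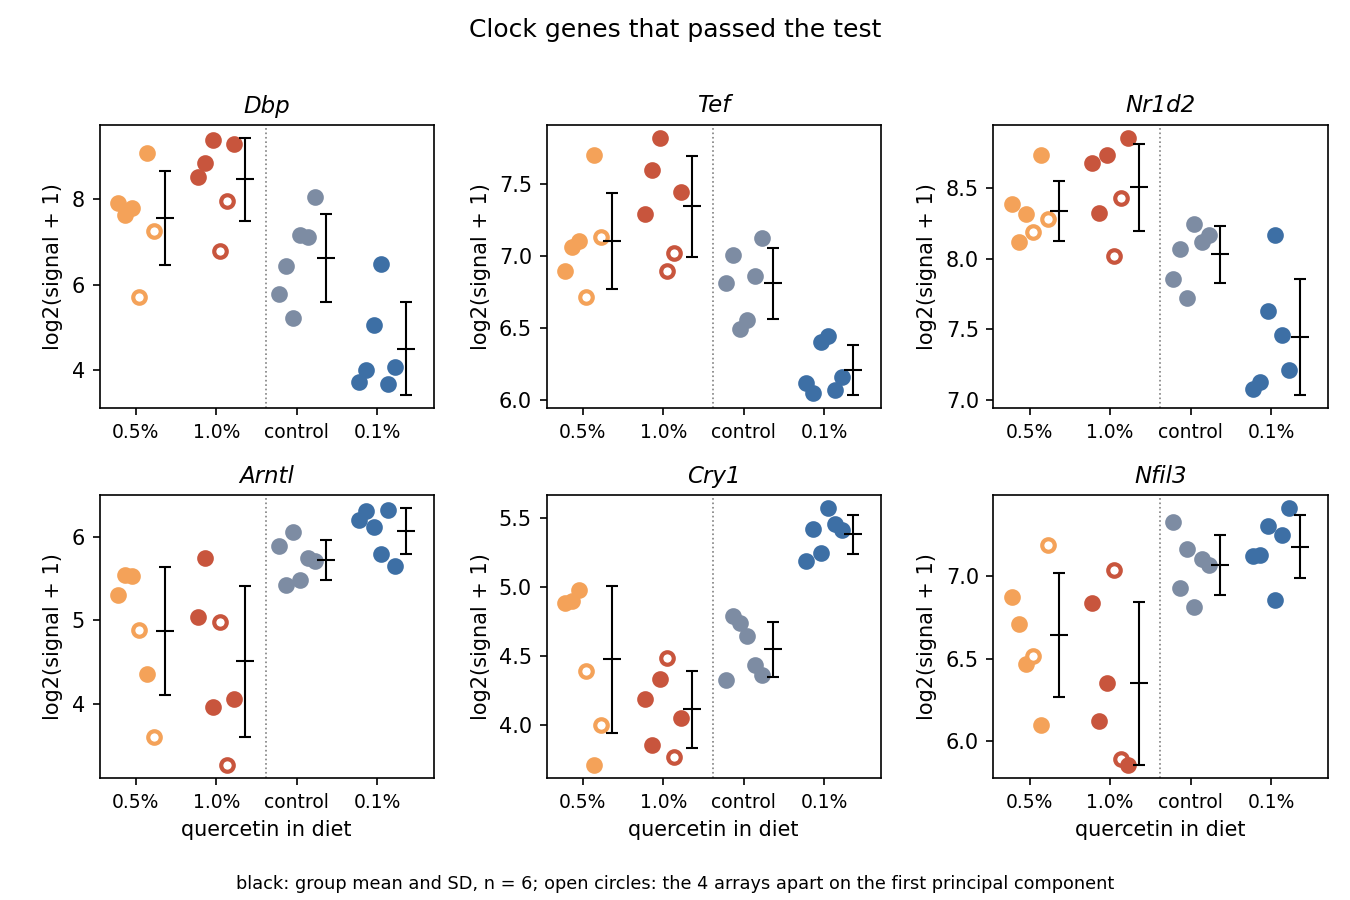
Log2(signal + 1) levels of the 6 clock genes that passed, 1 point per array, with group means and SD in black (n = 6) and open circles for the 4 arrays that stood apart. Dbp, Tef and Nr1d2 have their lowest mean in the 0.1% group, while Arntl, Cry1 and Nfil3 have their highest there. The dotted line parts the higher doses on the left from the lower doses.

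Because clock activators act through E-boxes, the promoter windows of Tef are shown, taken from RefSeq on GRCm38.p6 and running from 250 bases before to 50 bases after a transcript start. The capitals mark the E-box CACGTG, which is its own reverse complement and was searched on both strands.
Tef, chr15:81802423-81802722, plus strand: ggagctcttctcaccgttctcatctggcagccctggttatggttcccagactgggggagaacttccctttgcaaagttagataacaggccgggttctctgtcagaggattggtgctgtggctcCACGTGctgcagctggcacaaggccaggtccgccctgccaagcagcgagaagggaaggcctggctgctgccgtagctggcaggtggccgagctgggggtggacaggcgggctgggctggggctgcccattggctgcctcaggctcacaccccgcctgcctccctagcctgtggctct
Tef, chr15:81811164-81811463, plus strand: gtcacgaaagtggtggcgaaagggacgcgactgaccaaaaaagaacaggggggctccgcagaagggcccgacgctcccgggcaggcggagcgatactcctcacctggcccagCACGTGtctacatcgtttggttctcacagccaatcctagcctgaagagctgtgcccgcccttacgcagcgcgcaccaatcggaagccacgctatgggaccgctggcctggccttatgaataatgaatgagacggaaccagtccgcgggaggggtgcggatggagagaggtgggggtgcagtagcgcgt
The E-box began at -127 and at -138 from the start site, whose first base counts as 1. It was also searched for at Dbp, Nr1d2, Arntl and Klf9, and no window with a match was found for them. Tef is therefore not typical of the genes in this search, and no such result is given here for Cry1 and Nfil3. Such windows were found for 53 of the 62 genes that rose and 44 of the 53 that fell, in 65 and 58 windows. An E-box was in 21.5% of the windows of genes that rose and in 12.1% of those of genes that fell, against 7.15% of all 32851 windows. Both Tef windows shown are among the 14 E-box windows of genes that rose. A higher share in genes that rose was not particular to the E-box. The sequence TGACG, also searched for, was in 35.4% of the windows of genes that rose and 22.4% of those of genes that fell, against 20.8% of all windows. The D-box core TTANNTAA was in 3.08% and 6.9%, against 6% of all windows. A match describes the letters of a window and shows no binding.

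Feedback inhibitors that are induced by cytokines and growth hormone rose with the higher doses. Of 16 genes on this list, Socs3, Socs2 and Cish rose, none fell and 13 did not pass, and the list median was 0.14 with all arrays and 0.05 without the 4. Socs3, an inhibitor of cytokine receptor signalling that Stat3 induces, read 5.12, 6.76 and 7.94 with the higher doses and 3.55, 4.42 and 6.42 with the lower doses (4.44-fold, difference 2.15 ± 0.33, adjusted p = 0.0069). Every higher-dose array lay above the lower-dose median, and 8 of 12 lay above all lower-dose arrays. Socs2, the growth hormone-induced member of the family, read 3.76, 6.30 and 8.43 against 2.71, 4.39 and 6.41 (2.02 ± 0.43, adjusted p = 0.031). This rise rests on 1 probe set. Of 5 other Socs2 probe sets, 2 had the same sign and 3 the opposite, with differences from -0.926 to 1.98, and none passed. Cish, which is induced through Stat5, read 6.81, 7.10 and 7.53 with 0.5% and 4.38, 5.13 and 7.21 with 1.0%, against 3.96, 4.65 and 5.86 in controls and 4.25, 4.91 and 6.62 with 0.1% (higher minus lower doses 1.45 ± 0.32, adjusted p = 0.040). The 0.5% arrays of Cish lay together at the top, and the 1.0% arrays overlapped the lower doses throughout most of their range. Its difference between 1.0% and 0.5% was -1.54 ± 0.46 and did not pass (adjusted p = 0.510). Socs3 still passed without the 4 arrays (1.91, adjusted p = 0.0288), while Socs2 (1.40, adjusted p = 0.228) and Cish (1.54, adjusted p = 0.125) did not.

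The promoters of Socs3 and Cish are shown because Stat proteins bind the GAS sequence TTCNNNGAA, which is its own reverse complement and is in capitals here.
Socs3, chr11:117969317-117969616, minus strand: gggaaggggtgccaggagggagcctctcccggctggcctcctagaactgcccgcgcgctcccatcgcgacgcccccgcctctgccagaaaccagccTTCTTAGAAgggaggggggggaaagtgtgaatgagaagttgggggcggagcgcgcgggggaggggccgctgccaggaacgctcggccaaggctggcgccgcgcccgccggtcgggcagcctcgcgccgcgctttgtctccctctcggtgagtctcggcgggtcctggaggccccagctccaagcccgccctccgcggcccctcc
Cish, chr9:107296409-107296708, plus strand: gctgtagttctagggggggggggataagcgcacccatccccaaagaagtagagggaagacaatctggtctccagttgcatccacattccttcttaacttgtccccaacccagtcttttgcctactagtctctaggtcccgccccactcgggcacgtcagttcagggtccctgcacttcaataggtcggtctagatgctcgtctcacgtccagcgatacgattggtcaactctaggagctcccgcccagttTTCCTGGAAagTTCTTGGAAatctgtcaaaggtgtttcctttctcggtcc
The Socs3 window held 1 match, which began at -154, and the Cish window held 2. GAS was also searched for at Socs2, and no window with a match was found. GAS matches were in 16.9% of the windows of genes that rose and 6.9% of those of genes that fell, against 8.3% of all windows.

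Metallothioneins had the largest differences of all called genes, and their levels split the higher-dose arrays. Of 17 metal-handling genes, Mt1, Mt2 and Slc39a14 rose, Slc30a10 fell and 13 did not pass, with a list median of -0.08. Mt1, a small protein that binds zinc and copper, read 5.07, 7.45 and 12.60 with 0.5% and 7.47, 10.02 and 12.62 with 1.0%, against 4.67, 5.30 and 5.83 in controls and 4.77, 5.76 and 6.30 with 0.1%. The 6 arrays of 1.0% and 0.5% replicates 4, 5 and 6 lay above every lower-dose array, while 0.5% replicates 1, 2 and 3 lay within the lower-dose range at 5.91, 5.53 and 5.07. The difference was 3.74 ± 0.83 (13.4-fold, adjusted p = 0.0377). Mt2, its neighbour with the same role, read 3.82, 8.37 and 12.11 with the higher doses and 3.33, 4.22 and 4.99 with the lower doses (4.06 ± 0.93, 16.7-fold, adjusted p = 0.0459). In replicates 1 to 3 alone the differences were 1.23 for Mt1 and 1.25 for Mt2 (adjusted p = 0.452 and 0.559), and in replicates 4 to 6 alone 6.26 and 6.87 (adjusted p = 0.0135 and 0.0125). The labels do not say what the numbers 1 to 3 and 4 to 6 stand for. Slc39a14, an importer of zinc, iron and manganese, read 7.29, 7.90 and 9.13 against 7.11, 7.29 and 7.47 (0.75 ± 0.17, adjusted p = 0.0459). Slc30a10, a manganese exporter, read 6.16, 6.54 and 6.96 against 6.69, 6.98 and 7.32 (-0.48 ± 0.09, adjusted p = 0.018). None of the 17 passed without the 4 arrays that stood apart, and Mt1 and Mt2 differed by 2.08 and 2.20 (adjusted p = 0.0914 and 0.132). The part of whatever sets these 4 arrays apart in the metallothionein levels was not tested.

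**Figure D4:**
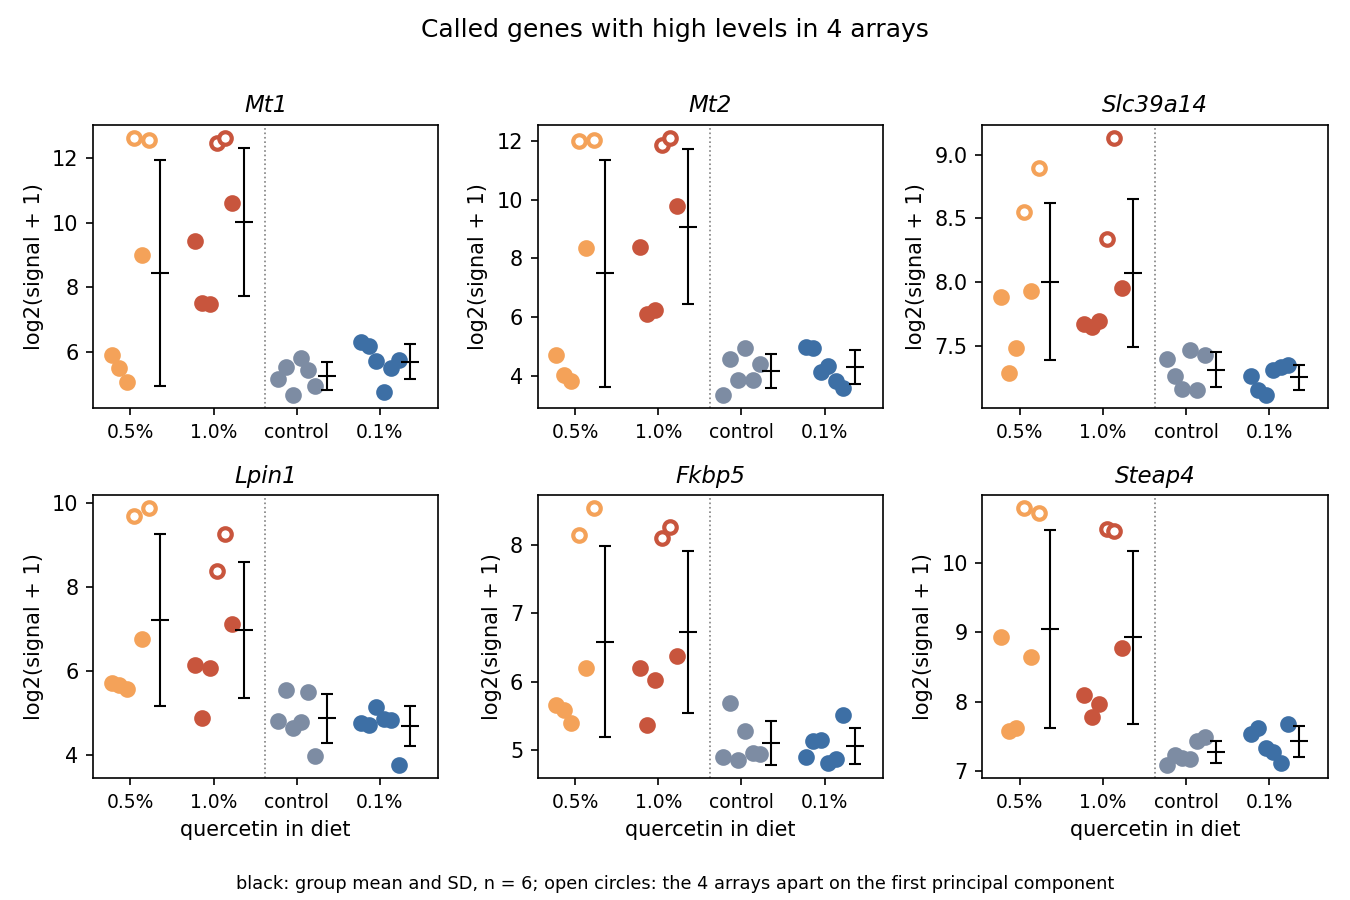
Log2(signal + 1) levels of 6 called genes, 1 point per array, with group means and SD in black (n = 6) and open circles for the 4 arrays described as apart. Mt1, Mt2, Slc39a14, Lpin1, Fkbp5 and Steap4 have their 4 highest values in these arrays, and the 1.0% arrays of Mt1 and Mt2 all lie above the lower doses.

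The Mt2 promoter is shown for the core of the metal response element, TGCNCNC, which is in capitals on either strand.
Mt2, chr8:94172368-94172667, plus strand: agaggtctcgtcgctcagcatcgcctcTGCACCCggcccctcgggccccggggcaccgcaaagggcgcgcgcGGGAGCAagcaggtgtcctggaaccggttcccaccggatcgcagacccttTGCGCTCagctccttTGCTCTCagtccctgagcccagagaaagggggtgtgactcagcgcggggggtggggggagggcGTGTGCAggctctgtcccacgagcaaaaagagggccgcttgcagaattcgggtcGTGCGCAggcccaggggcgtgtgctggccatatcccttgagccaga
This window held 6 matches and the Mt1 window 3. The core is short and common, being in 60% of the windows of genes that rose and 62.1% of those of genes that fell, against 51% of all windows.

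Lipid and glucose genes moved in both directions. Of 28 genes of fatty acid and triglyceride synthesis, the phosphatidate phosphatases Lpin1 and Lpin2 rose, Srebf1 fell and 25 did not pass. The list median was -0.34, with 4 of 28 differences above 0, against 8419 of 18194 over all genes, and without the 4 arrays the median was -0.19 with 9 of 28 above 0. Lpin2 read 7.43, 8.02 and 8.46 with the higher doses and 6.71, 7.14 and 7.78 with the lower doses (0.81 ± 0.13, adjusted p = 0.0069). Its control arrays, at 7.19 to 7.78, all lay above its 0.1% arrays, at 6.71 to 7.09. Lpin1 read 4.88, 6.45 and 9.87 against 3.76, 4.80 and 5.54, and 11 of 12 higher-dose arrays lay above every lower-dose array (2.31 ± 0.53, adjusted p = 0.0459). Its 4 highest arrays were the 4 that stood apart, and without them it differed by 1.21 (adjusted p = 0.0914). Srebf1, the transcription factor that drives lipogenic genes after feeding, read 6.17, 7.56 and 8.25 against 7.77, 8.44 and 8.82 (-1.10 ± 0.24, adjusted p = 0.032), and without the 4 arrays it differed by -0.66 (adjusted p = 0.133). Scd1, the stearoyl-CoA desaturase, and Insig2, which retains SREBP proteins in the endoplasmic reticulum, had differences of -0.49 and -0.42 that did not pass (adjusted p = 0.063 and 0.058). Of 13 fasting and gluconeogenesis genes, the glucose-6-phosphatase gene G6pc was called, as lower. It read 8.33, 9.27 and 10.22 against 9.19, 10.20 and 10.62 (-0.87 ± 0.19, adjusted p = 0.036), and it still passed without the 4 arrays (-1.12, adjusted p = 0.0247). Of 31 PPAR-alpha targets, the carnitine transporter gene Slc22a5 (0.46 ± 0.10), the peroxisome division gene Pex11a (0.41 ± 0.09) and the enoyl-CoA isomerase gene Eci2 (0.35 ± 0.08) rose, and 28 did not pass. The list median was 0.05 with all arrays and 0.11 without the 4, where no member passed, and Pdk4, the pyruvate dehydrogenase kinase raised by fasting, had a difference of -1.03 ± 0.28 that did not pass (adjusted p = 0.100). Of 19 cholesterol genes measured none passed.

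Bile acid genes had differences mostly below 0, and 1 of them passed. Nr0b2, the nuclear receptor that represses bile acid synthesis, read 7.55, 8.22 and 9.46 with the higher doses and 8.54, 9.25 and 9.58 with the lower doses (-0.98 ± 0.18, adjusted p = 0.011). Only 1 higher-dose array lay within the lower-dose range. Of the 21 genes on the list 19 had differences below 0 and the median was -0.16, while without the 4 arrays 15 were below 0 and the median was -0.04. The bile salt export pump gene Abcb11 and the bile acid uptake gene Slc10a1 had differences of -0.25 ± 0.06 and -0.23 ± 0.07 that did not pass (adjusted p = 0.069 and 0.160). In bulk tissue, fewer cells of a type and less RNA per cell cannot be told apart, here and in every result on these livers.

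Glucocorticoid-responsive and stress genes rose in small numbers. Of 13 glucocorticoid-responsive genes, Klf9, Lpin1 and Fkbp5 rose, none fell, 10 did not pass and the median was 0.36. This median was 0.22 without the 4 arrays, with 7 of 13 differences above 0, and Klf9 and Fkbp5 still passed. Fkbp5, a chaperone of the glucocorticoid receptor and one of its targets, read 5.37, 6.20 and 8.54 with the higher doses and 4.81, 4.96 and 5.69 with the lower doses (1.57 ± 0.37, adjusted p = 0.0496). Its difference without the 4 arrays was 0.77 (adjusted p = 0.0409). Zbtb16, another target, had a difference of 1.39 ± 0.34 that did not pass (adjusted p = 0.063). The sequence AGAACA, part of the glucocorticoid receptor's site, was in 15.4% of the promoter windows of genes that rose and 15.5% of those of genes that fell, against 19% of all windows. Of 16 heat shock genes the small chaperone gene Hspb8 rose (0.87 ± 0.18, adjusted p = 0.030), and 13 of 16 differences were above 0 with a median of 0.56. Hspa8 and Hsph1, cytosolic chaperone genes, had differences of 0.64 and 1.19 that did not pass (adjusted p = 0.063 and 0.067). Without the 4 arrays the heat shock median was 0.28, with 11 of 16 above 0 and none called. Of 24 genes of the unfolded protein response, its transcription factor Xbp1 rose, with levels of 10.48, 10.89 and 11.79 with the higher doses against 9.88, 10.20 and 10.63 with the lower doses (0.78 ± 0.15, adjusted p = 0.018). The list median was 0.06 with all arrays and -0.04 without the 4, where Xbp1 still passed (0.50, adjusted p = 0.0409). Of 16 immediate early genes Klf10 was called as higher (0.67 ± 0.14, adjusted p = 0.029), and it did not pass without the 4 arrays (0.59, adjusted p = 0.0817). Its medians were 6.56 with 0.5% and 6.89 with 1.0%, against 6.61 in controls and 5.46 with 0.1%. The 0.1% median was the lowest, and the 0.5% and control medians lay close together. Junb (0.92 ± 0.24) and Jun (-0.82 ± 0.21) did not pass (adjusted p = 0.091 and 0.067), and the list median was 0.54 with all arrays and 0.10 without the 4.

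Acute-phase genes had differences mostly above 0, and 1 passed. Steap4, a metalloreductase induced by inflammation, read 7.58, 8.70 and 10.79 with the higher doses and 7.08, 7.30 and 7.68 with the lower doses (1.64 ± 0.38, adjusted p = 0.0459). Of 22 acute-phase genes 19 had differences above 0 with a median of 0.16, while without the 4 arrays 13 did, the median was 0.04 and none passed. The serum amyloid genes Saa1 and Saa2 and the lipocalin gene Lcn2 had differences of 1.46 ± 0.37, 1.94 ± 0.48 and 1.96 ± 0.49 that did not pass (adjusted p = 0.072, 0.063 and 0.063). Neutrophil markers had differences of the same sign, and none passed. Of 8 measured, 7 had differences above 0 with a median of 0.43, or 0.33 without the 4 arrays. Their mean level was 2.75 to 3.84 with the higher doses and 2.22 to 3.18 with the lower doses. In the 4 arrays that stood apart it was 3.42 to 3.84, against 2.75 to 3.38 in the other 8 higher-dose arrays. S100a8 and S100a9, calcium-binding proteins of neutrophils, had differences of 1.21 ± 0.34 and 0.68 ± 0.32 (adjusted p = 0.117 and 0.400). Camp, a neutrophil granule protein, read near the floor, at 0.40 to 2.49 with the higher doses and 0.31 to 1.27 with the lower doses. The part of neutrophils in the acute-phase and cytokine feedback values was not tested.

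Heme, coenzyme Q, sulfur amino acid and other small lists held 1 or 2 calls each. Alas1, the rate-limiting enzyme of heme synthesis, was the only 1 of 11 heme genes called. It read 8.73, 10.42 and 10.80 with 0.5% and 7.06, 7.99 and 8.97 with 1.0%, against 7.18, 7.61 and 9.44 in controls and 6.92, 7.19 and 7.87 with 0.1%. Most 0.5% arrays lay above all others, and the 1.0% arrays overlapped the controls (higher minus lower doses 1.50 ± 0.27, adjusted p = 0.013). Its difference between 1.0% and 0.5% was -2.04 ± 0.39 and did not pass after adjustment (adjusted p = 0.084). Of 12 coenzyme Q genes, Coq8a, an atypical kinase needed for the synthesis, fell (-0.69 ± 0.12, adjusted p = 0.0096), and Coq10b, a coenzyme Q-binding protein, rose (0.82 ± 0.18, adjusted p = 0.036). Of 15 genes of taurine and sulfur amino acids, Csad (0.55 ± 0.11) and the methionine synthase reductase gene Mtrr (0.59 ± 0.14) rose, and the list median was -0.10. Hal, the histidine ammonia-lyase, was the only 1 of 20 urea cycle and amino acid breakdown genes called (-0.48 ± 0.10, adjusted p = 0.033). Dnase2a, the lysosomal DNase, was the only 1 of 18 lysosomal genes called (0.60 ± 0.13, adjusted p = 0.029), with means of 6.30 with 0.5% and 7.13 with 1.0%, against 5.94 in controls and 6.28 with 0.1%. Without the 4 arrays that stood apart, Coq8a and Csad still passed (adjusted p = 0.0354 and 0.0288), while Coq10b, Mtrr, Hal and Dnase2a did not (adjusted p = 0.167, 0.303, 0.132 and 0.0962).

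Genes of flavonoid conjugation, the antioxidant response and foreign-compound metabolism held 1 call between the higher and the lower doses. None of 18 genes of flavonoid conjugation and efflux passed, with a median of 0.00 and differences between -0.26 and 0.47. The sulfotransferase Sult1a1 and the UDP-glucose dehydrogenase Ugdh had differences of -0.26 ± 0.08 and 0.47 ± 0.15 (adjusted p = 0.145 and 0.170). Of 23 Nrf2 targets Pgd, a dehydrogenase of the pentose phosphate pathway, was called, as lower (-0.57 ± 0.13, adjusted p = 0.0496), and the median was -0.05. Pgd passed in 4 of the 24 fits that left out 1 array, and without the 4 arrays that stood apart its adjusted p was 0.313. Nfe2l2, which encodes Nrf2, and the glutathione synthesis gene Gclc had differences of -0.41 ± 0.13 and -0.28 ± 0.09 that did not pass (adjusted p = 0.157 and 0.199). The sulfiredoxin gene Srxn1 had 1.04 ± 0.37 (adjusted p = 0.229), and its highest array read 9.24 against a lower-dose maximum of 6.16. Its 4 highest arrays were the 4 that stood apart, and without them it differed by 0.233 (adjusted p = 0.775). Of 14 genes of superoxide and peroxide removal none passed, and their median was 0.00. None of 8 genes of the Ahr pathway and none of 18 CAR and PXR targets passed, with medians of 0.06 and -0.18, Tiparp (0.83 ± 0.30) and Cyp3a25 (-0.26 ± 0.08) included. Without the 4 arrays, Tiparp differed by 0.323 and Cyp3a25 by -0.125 (adjusted p = 0.615 and 0.655). The antioxidant core TGACNNNGC was in 13.8% of the windows of genes that rose and 15.5% of those of genes that fell, against 12.4% of all windows.

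Lists of interferon and antigen presentation (19 genes), p53 and Gadd45 (10), the cell cycle (17), sirtuins, AMPK and mitochondrial biogenesis (16) and the respiratory chain (32) held no called gene, with medians of 0.02, 0.15, -0.16, 0.02 and -0.03. In the respiratory chain 26 of 32 differences were below 0, all between -0.16 and 0.11. None of the 11 lists of cell type markers held a called gene. The mean hepatocyte marker level was 12.3 to 12.7 with the higher doses and 12.5 to 12.7 with the lower doses, and that of Kupffer cell markers 6.06 to 6.57 against 6.06 to 6.56. List medians were -0.02 for hepatocytes, -0.12 for Kupffer and for stellate cells, -0.07 for endothelial cells, 0.30 for cholangiocytes, 0.01 for lymphocytes, -0.19 for erythroid cells, -0.02 for exocrine pancreas, 0.13 for adipocytes and 0.38 for skeletal muscle, the last 4 from 2 or 3 genes each.

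Leaving out the 4 arrays that stood apart reduced most of the differences of the 115 called genes. A gene kept between 48.8% and 128% of its difference, with a median of 78%. For 28 genes less than 2/3 of the difference remained, Mt1, Mt2, Lpin1, Fkbp5 and Steap4 among them, and 81 genes no longer passed with the smaller number of arrays. In replicates 1 to 3 alone and in replicates 4 to 6 alone, 2 and 19 genes were called. Of the 54 called genes named above, 32 passed in all 24 fits that left out 1 array, the 30 genes with the smallest p included. The other 22 passed in 4 to 23 of these fits, with a highest adjusted p of 0.0507 to 0.0952, and leaving out control replicate 3 lost the calls of all 22.

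**Figure D5:**
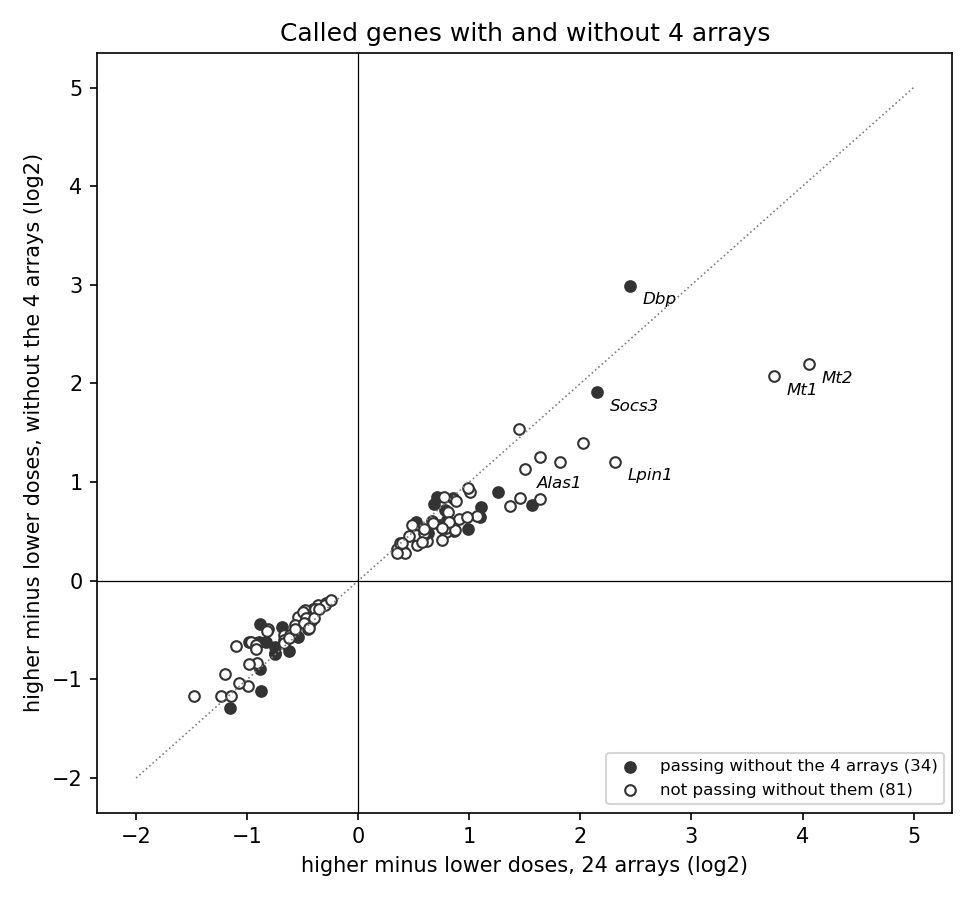
Differences between the higher and the lower doses in log2 units for the 115 called genes, with all 24 arrays (horizontal axis) and without the 4 arrays that stood apart (vertical axis). Filled circles are the 34 genes that passed without these arrays, open circles the 81 that did not, and the dotted line marks equal values. Mt1, Mt2 and Lpin1 lie far under the line, and Dbp lies above it.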

How the data were processed

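Liver RNA was made into biotin-labelled cRNA and hybridised to Affymetrix mouse arrays, 1 array a mouse, per the labels' protocols. The values are the authors' deposited signal intensity per probe set on a linear scale. The software and the probe set summary are not stated by the labels or file headers. Array medians ran from 4.78 to 7.58, so they had not been set equal, and whether the arrays were scaled in another way was not determined. Precision is limited by the number of arrays. Of 45101 probe sets, 34958 had 1 gene symbol, 932 had several and 9211 were not listed. Symbols came from the platform annotation, and 34754 probe sets matched a RefSeq gene ID. Values became log2(signal + 1), were quantile normalized, and the probe set with the highest mean over 24 arrays stood for each of 18194 genes. Levels of different probe sets were not compared.

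limma 3.58.1 (R 4.3.3) fitted 4 group means, and the contrast (0.5% + 1.0%)/2 minus (control + 0.1%)/2 was tested two-sided with Benjamini-Hochberg adjustment over all genes. The same fit gave 1.0% minus 0.5%, 0.1% minus control and a joint F test of both. The fit was tested on simulated data. The text names the 15 rises and 15 falls with the smallest adjusted p, up to 5 genes per contrast within a side (3 where none passed), and list members with the smallest p, clone names left out. The division of the diets into higher and lower doses, and so the members, the 39 lists (550 of 596 genes measured) and the rule were chosen with earlier results of these data known. Alternatives covered normalization, pseudocount, probe set choice, dim genes, variance model, array weights, blocks and left-out arrays. The replicate number was checked as a pairing. Promoters and motifs are from RefSeq, GRCm38.p6.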

Additional observations from a re-analysis of the deposited data

Results flagged for a closer look

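Among 77 genes named in the text, each tested in 4 groups of 6 arrays, 13 of 308 groups (4.22%) had a highest or lowest array set off from its nearest neighbour by a large share of the range, where chance gives about 5%. Control replicate 2 was the high array for Alas1 (9.44), Hspb8 (8.53), Hspa8 (11.58) and Hsph1 (9.14). In the 0.5% group, replicate 2 was low for Gpr146 (6.52) and high for Sult1a1 (10.28), and replicate 6 was high for Ppp1r3c (9.77) and low for Gclc (9.67). In the 1.0% group, replicate 2 was low for Eci2 (9.38) and replicate 6 was low for Junb (5.06). In the 0.1% group, replicate 2 was high for St3gal5 (6.09), replicate 4 was low for Pdk4 (3.92) and replicate 6 was low for Lpin1 (3.76).

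The 2 higher doses differed from each other, by limma's test of 1.0% against 0.5%, in 4 genes. The difference of 1.0% minus 0.5% was 1.00 for Csad, 0.49 for Saal1, 1.73 for Ppfia4 and -1.19 for Arid5b.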

How the results depend on the processing

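The count of calls moved with the processing. Calls for the higher against the lower doses numbered 20 higher and 3 lower without normalization, 29 and 19 with arrays centred on their medians, 106 and 131 with a pseudocount of 16, 37 and 35 with the mean over probe sets, 141 and 165 in the brighter 9097 genes, and 99 and 136 with a trended, robust variance. They numbered 112 and 108 with replicates 1 to 3 and 4 to 6 as a fixed term, 37 and 35 with sets of 3 arrays as a random block, 1 and 1 in replicates 1 to 3, and 14 and 5 in replicates 4 to 6. Chosen after seeing the data, leaving out the 4 arrays that stood apart gave 22 and 19, and leaving out the 2 arrays with high 18S signal gave 34 and 42. The cause of these shifts was not tested, apart from the smaller number of genes or arrays where either was cut. Leaving out 1 array gave 28 to 95 higher and 29 to 99 lower. Calls for 1.0% against 0.5% numbered 0 without normalization, with array weights, with the replicate block, with sets as a random block and without the 4 arrays, 1 with median centring and with the mean over probe sets, 2 with the trended variance and without the 18S arrays, and 0 to 8 without 1 array. Under the mean over probe sets Saal1 turned to -0.0285. Calls for 0.1% against control numbered 0 to 1 without 1 array. The joint test called 4 genes with a pseudocount of 16, 3 in the brighter genes, 3 with the trended variance, 1 without the 18S arrays and 0 to 1 without 1 array. The replicate numbers did not pair the mice, with residual correlations of -0.0641 to 0.111 between arrays of the same number, 1 of 36 over 0.1, and 4 of 24 arrays closest to their own number. With the replicate block 45 genes were called as higher and 38 as lower, and 79 of the 115 calls were kept. Signal near the floor limits dim probe sets such as that of Carlr.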

Other observations

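Beyond the genes named by rule, the calls held further transcription factors and signalling genes, picked here after their values were seen. Cebpb, a liver factor of acute and fasting responses, rose by 1.10 ± 0.22 (SE, n = 12 each), with 7.90, 8.46 and 9.95 (lowest, median and highest) at the higher doses and 7.16, 7.63 and 8.26 at the lower doses (limma, adjusted p = 0.0219), and by 0.65 without the 4 arrays that stood apart (adjusted p = 0.0386). Bach1, a heme-binding repressor, rose by 0.86 ± 0.20 (adjusted p = 0.0462), and the liver factor gene Onecut1 by 1.64 ± 0.35 (adjusted p = 0.0327). The kinase gene Map3k5 rose by 0.99 ± 0.22 and Bnip3, a mitophagy receptor, by 0.62 ± 0.12. Cdh1, which encodes E-cadherin, differed by -0.45 ± 0.09, and the claudin gene Cldn1 by -0.88 ± 0.21. The water channel gene Aqp8 fell, with 7.71, 8.84 and 9.20 at the higher doses and 8.99, 9.46 and 10.13 at the lower doses (-0.81 ± 0.17, adjusted p = 0.0303). Leaving out the 4 arrays, Bach1, Map3k5 and Cldn1 still passed (adjusted p = 0.0288, 0.0438 and 0.0288), while Onecut1, Bnip3, Cdh1 and Aqp8 did not (adjusted p = 0.228, 0.0817, 0.0814 and 0.124).

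Without the 4 arrays that stood apart, 7 genes were called that did not pass with all 24. Tacc2, a centrosomal protein gene, differed by 0.67 without them (adjusted p = 0.00538) and by 1.27 with them (adjusted p = 0.051). The choline kinase gene Chka differed by -0.78 without them (adjusted p = 0.04) and by -0.36 with them (adjusted p = 0.544).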
